A study of Homo sapiens with 18 samples.

Results

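The histone genes of the HIST clusters were followed in GM12878, an Epstein-Barr virus-transformed human lymphoblastoid B-cell line, after CRISPR knockout of each of the 5 NF-κB subunits. The genes were taken from the expression table by symbol (HIST1H to HIST4H) and by a mean of at least 5 normalised reads over the 18 libraries. Of 17155 genes in the table, 28 carried such a symbol and 23 reached that mean: 4 of type H1, 5 of H2A, 9 of H2B, 2 of H3 and 3 of H4. By cluster, 17 were HIST1, 4 HIST2, 1 HIST3 and 1 HIST4. HIST2H2BC (mean 5.31, listed as a processed pseudogene) lay just inside the limit and HIST3H2BB (4.32) just outside it, with HIST2H3D, HIST1H4J, HIST2H2AB and HIST1H1T lower still. The statistical test was run on genes with a mean of at least 10, which left out HIST2H2BC and HIST2H2BF (6.58) and kept 21 members.

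There were 6 groups of 3 libraries: control cells and cells with guides against cRel, p50, p52, RelA or RelB. All groups share the GM12878 background, which the labels call wild-type for LMP1, the viral membrane protein that switches on NF-κB. All received lentiviral guide RNAs and 5 days of puromycin at 3 µg/ml, and protein loss was checked by immunoblot per the labels. Polyadenylated RNA was selected from 1 µg of total RNA and made into strand-marking libraries. The labels call the 3 libraries of a group biological replicates. The sources used here do not give whether these were separate cultures or clones. The p-values below therefore speak only of the spread among libraries, which may be technical.

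Histones are the proteins around which DNA is wound. H2A, H2B, H3 and H4 form the core of the nucleosome, and H1 binds the DNA between cores. Most HIST genes have no introns, are transcribed while DNA is being copied, and end their mRNA in a short stem-loop in place of a poly(A) tail. The stem-loop is bound by SLBP, which directs processing of the end, and NPAT activates transcription of these genes at the entry to S phase. Some of the genes, HIST1H1C, HIST1H2AC and HIST1H2BD among them, are also known to make polyadenylated mRNA, and selection for poly(A) favours such forms. The values below come from RNA selected in this way, and how much tail-less histone mRNA they still hold was not tested. In bulk libraries, fewer cells in S phase and less RNA per cell cannot be told apart.

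The stem-loop is shown because it separates the class from other mRNA. The pattern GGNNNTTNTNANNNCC was searched on the sense strand of the GENCODE 29 transcripts and was found in 12 of the 23 members, against 6.43% of 19684 protein-coding genes. A match is a description of the annotated letters only, since several gene models, that of HIST1H1C included, end before any stem-loop could be read. There were 4 forms, written 5′ to 3′ with the loop in capitals and the DNA letters of the transcript:
HIST1H2AC: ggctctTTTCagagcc
HIST1H2BC: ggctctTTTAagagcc
HIST1H4H: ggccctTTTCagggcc
HIST1H2AG: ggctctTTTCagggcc
The first form was found in 7 members, the HIST1H2BC form also in HIST1H2BD, the HIST1H4H form also in HIST4H4, and the last in HIST1H2AG alone, where the arms of the stem are not fully complementary. A poly(A) signal (AATAAA or ATTAAA) stood within 50 bases of an annotated transcript end in 10 members, and 9 of these also held the stem-loop. Such an end was annotated for 8 of the 11 members with a mean of at least 100 normalised reads and for 2 of the 12 below it.

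Promoters are shown for members whose levels moved together or stood apart from the rest. The sequences and positions are those of RefSeq on GRCh38.p14, while the authors' reads were aligned to GRCh37. A RefSeq promoter was matched to 20 members. On either strand, the octamer ATTTGCAT, known as the site of OCT1 and OCT2, was in 9 of the 20 (45.0%) against 1.77% of 35116 RefSeq promoters. CCAAT, the core of the NF-Y site, was in 18 (90.0%) against 34.6%. The letters TATAAA, those of the TATA box, were in 13 (65.0%) against 11.5%, counted anywhere in the window. The only match of HIST4H4 began 250 bases before its start. That of HIST1H2BC began 220 bases before its start, at the match of its neighbour HIST1H2AC. The degenerate kappaB motif was in 0 of the 20, against 11.3% of all promoters; these letters are not in these windows, and binding was not measured. No promoter of an H1 or H4 member held the octamer. The windows of head-to-head neighbours overlap, so a site between them is counted for both genes. The octamers of HIST1H2AC and HIST1H2BC are the same letters. So are those of HIST1H2AG and HIST1H2BJ, and those of HIST2H2AC and HIST2H2BE. The 20 promoters are therefore not independent, and there were fewer distinct sites than promoters holding them. In the sequences below, capitals mark octamer, CCAAT and TATAAA letters on either strand, which overlap in places:
HIST1H1C: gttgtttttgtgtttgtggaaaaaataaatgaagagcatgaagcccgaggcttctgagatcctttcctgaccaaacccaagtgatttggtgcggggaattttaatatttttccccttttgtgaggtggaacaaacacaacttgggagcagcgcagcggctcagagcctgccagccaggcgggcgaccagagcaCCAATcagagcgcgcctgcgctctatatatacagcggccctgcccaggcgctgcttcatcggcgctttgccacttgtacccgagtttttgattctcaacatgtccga
HIST1H2BK: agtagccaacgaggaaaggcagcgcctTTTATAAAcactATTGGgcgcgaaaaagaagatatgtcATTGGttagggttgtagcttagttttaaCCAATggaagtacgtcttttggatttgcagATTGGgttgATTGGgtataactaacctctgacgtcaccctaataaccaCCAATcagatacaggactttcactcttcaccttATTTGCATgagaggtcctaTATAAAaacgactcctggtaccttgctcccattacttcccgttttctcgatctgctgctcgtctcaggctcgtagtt
HIST1H2AC: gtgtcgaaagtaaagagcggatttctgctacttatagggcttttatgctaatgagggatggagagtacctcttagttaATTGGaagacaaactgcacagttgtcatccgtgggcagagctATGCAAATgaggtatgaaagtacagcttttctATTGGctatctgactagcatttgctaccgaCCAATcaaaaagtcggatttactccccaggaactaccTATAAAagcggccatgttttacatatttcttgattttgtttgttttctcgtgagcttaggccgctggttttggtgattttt
HIST4H4: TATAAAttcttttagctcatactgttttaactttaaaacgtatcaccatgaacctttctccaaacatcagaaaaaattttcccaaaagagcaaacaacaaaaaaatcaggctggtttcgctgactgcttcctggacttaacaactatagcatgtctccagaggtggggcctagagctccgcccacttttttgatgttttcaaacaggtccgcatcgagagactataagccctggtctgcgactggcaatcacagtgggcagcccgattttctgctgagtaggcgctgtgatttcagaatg
They lie at chr6:26056421-26056720 (minus strand), chr6:27146809-27147108 (minus), chr6:26123922-26124221 (plus) and chr12:14771082-14771381 (minus). The HIST1H2AC window also holds the start of HIST1H2BC, which runs the opposite way from 246 bases upstream. HIST1H2BK carried 6 CCAAT letters and 1 octamer, HIST1H1C carried 1 CCAAT and no octamer, and HIST4H4 had neither.

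The libraries held 15179664 to 37473129 reads in genes (median 22077669), and 1 read was worth 0.646 to 1.46 normalised reads. The mRNA of the targeted genes was read first as a check of the labels, although a frame-shifting edit need not lower mRNA. RELA fell from 2208 ± 31.6 (SD, n = 3) to 1368 ± 35.4 in the RelA libraries, NFKB1 (p50) from 7066 ± 305 to 4685 ± 56.4 in p50, and NFKB2 (p52) from 8566 ± 138 to 6320 ± 172 in p52. REL was 1376 ± 457 in control and 1298 ± 16.6 in the cRel libraries, which did not pass the test. RELB rose from 3319 ± 158 to 4107 ± 170 in the RelB libraries, and it was lowest, 1887 ± 127, in the RelA libraries. The cRel and RelB groups are therefore named cRel-labelled and RelB-labelled, and every direction below rests on the labels. All 10 B-cell markers listed were measured above the test's limit, with summed values of 61437 to 79406 per library. The T and NK list had 4 of 11 genes above the limit and summed 336 to 773, the monocyte list 2 of 9 and 358 to 832, the fibroblast list 2 of 6 and 723 to 1591, and the erythroid list 0 of 5 and at most 26.

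Summed over the 23 members, histone mRNA was lowest in the RelB-labelled libraries and highest in the RelA and p50 libraries. The sums in the control libraries were 15078, 15808 and 18681 normalised reads, and in the RelB-labelled libraries 3346, 4320 and 4603. Every RelB-labelled library lay below every control library, and the mean, 4090 ± 659 against 16522 ± 1905 (SD, n = 3), was 4.04-fold lower. The sums were 25209, 26577 and 20957 in the RelA libraries, 25858, 19207 and 21963 in the p50 libraries, 14041, 12988 and 13933 in the p52 libraries, and 21176, 16694 and 16876 in the cRel-labelled libraries. RelA and p50 libraries all lay above the controls, p52 libraries all below, and cRel-labelled libraries overlapped them. These sums are carried by a pair of genes: reads of HIST1H1C and HIST1H2BK made up 67.8 to 85.2% of the sum in each library. No test was made on a sum, since its members are not replicates.

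**Figure D1:**
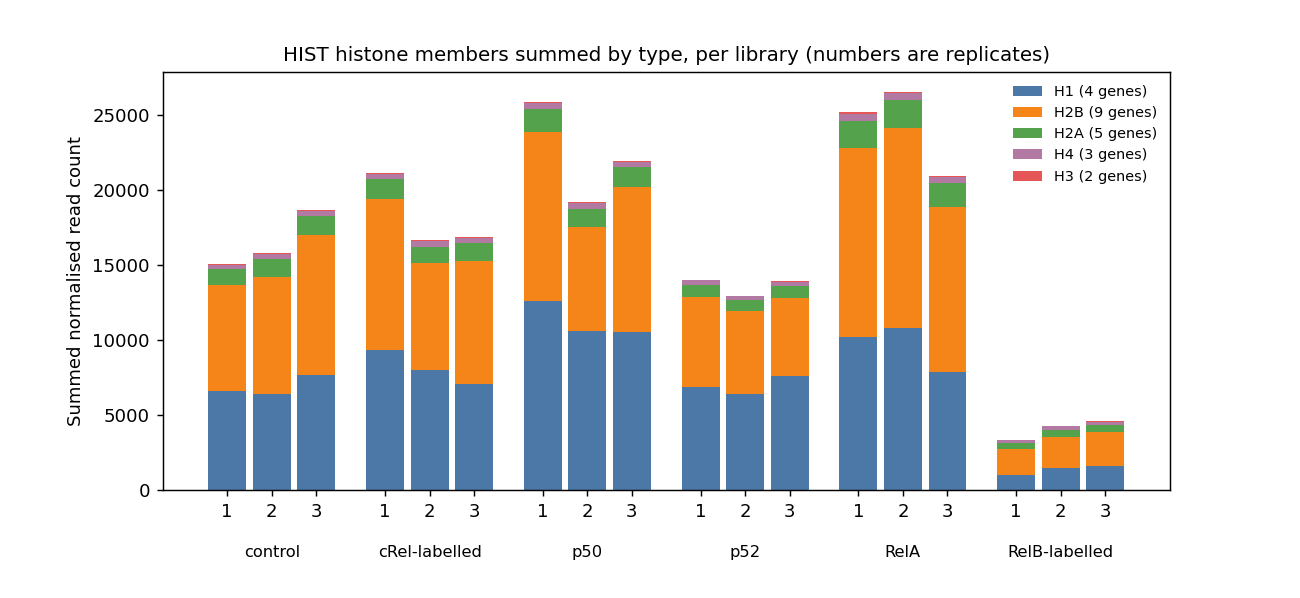
Summed normalised read count of the histone members (vertical axis) in each of the 18 libraries, stacked by histone type, with the replicate number and group on the horizontal axis. H1 and H2B fill most of each bar, and the 3 RelB-labelled bars, 3346 to 4603, stand below all the others.

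By type, the RelB-labelled mean was 5.05-fold below control for H1 (1363 ± 324 against 6884 ± 680), 3.98-fold for H2B (2026 ± 262 against 8066 ± 1158), 2.77-fold for H3 (24.6 ± 9.85 against 68.3 ± 14.4), 2.62-fold for H2A (463 ± 49.9 against 1213 ± 91.7) and 1.36-fold for H4 (213 ± 25 against 291 ± 32.5). In the RelA libraries the 5 types were 1.40-fold to 1.54-fold above control. In the p50 libraries H1 was 1.64-fold and H4 1.31-fold above control, while H3 was 1.11-fold below. In the p52 libraries the H1 sum was close to control (6973 ± 582) while H2A, H2B and H3 were 1.53-fold, 1.44-fold and 2.10-fold below it. The H1 sums are almost wholly HIST1H1C, with means of 6831 in control, 6935 in p52 and 1331 in the RelB-labelled libraries. The 4 H1 members had a median log2 fold change of -0.35 in p52, with 0 called. HIST1H1B was at 20.8 ± 3.56 in control and 11.1 ± 3.46 in p52. Over single members, the lowest group mean was the RelB-labelled one for 19 of 23, and the highest was the RelA one for 15 of 23. These counts include HIST2H2BF and HIST2H2BC, which lay under the test's limit. The order of group means was not counted over all genes, so how particular it is to histones was not tested.

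In the RelB-labelled libraries, 17 of the 21 tested members fell and none rose. The fall was 2-fold or more for 14 of them. Genes that fell made up 34.7% of all 12381 genes tested, and genes that fell at least 2-fold made up 3.78%, while 67.8% were called in either direction. Fold changes in this and the following comparisons are log2 differences on the log2(value + 1) scale, with limma's standard error and p-values adjusted over all genes tested by the Benjamini-Hochberg method. The median log2 fold change was -1.24 for the members and -0.0038 for all genes tested. For 18 of the 21 members all 3 RelB-labelled libraries lay below all 3 controls, against 35.7% of all genes. Of the untested members, HIST2H2BF was at 7.28 ± 1.46 in control and 3.94 ± 4.44 in the RelB-labelled libraries (SD, n = 3), and HIST2H2BC at 6.12 ± 0.436 and 3.93 ± 0.942. Of the 10 B-cell markers, 6 rose and 1 fell in the RelB-labelled libraries (70% called, against 67.8% of all genes). Their sum was 61892 to 65352 per control library and 74736 to 79406 per RelB-labelled library. Markers listed for other blood cells differed too. The 2 tested monocyte markers, CSF1R and VCAN, rose, and the list summed 415 to 432 per control library and 809 to 832 per RelB-labelled library. VCAN was also called higher in the cRel-labelled, p52 and RelA libraries. Of the 4 tested T and NK markers, NKG7 and CD4 rose, GNLY fell from 29.4 ± 6.38 to 8.01 ± 1.91 (SD, n = 3) and CD3E did not pass the test. That list summed 412 to 557 and 700 to 773, mostly from NKG7 (411 ± 71.3 and 675 ± 45.5). CD4 was at 6.62, 10.8 and 8.40 in control and at 24.8, 17.2 and 17.3 in the RelB-labelled libraries, while CD3D was at most 1.63 and CD14 at most 3.16 in any library. In the p50 and p52 libraries the monocyte list summed 653 to 718 and 639 to 754. The part of other cells in the histone changes was not tested.

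HIST1H1C, the most read linker histone, went from 6544, 6341 and 7608 normalised reads in control to 968, 1434 and 1590 in the RelB-labelled libraries. The groups were far apart, and the log2 fold change was -2.39 (SE 0.14, adjusted p = 2.97e-12). HIST1H2BC, a core H2B gene, was at 285, 343 and 364 in control and at 46.7, 59.3 and 82.6 in the RelB-labelled libraries, a log2 fold change of -2.41 (SE 0.18, adjusted p = 1.60e-10). HIST1H2BJ, also H2B, went from 532, 556 and 657 to 109, 120 and 116 (-2.32, SE 0.13, adjusted p = 1.58e-12). HIST2H2AC, of type H2A, went from 30.9, 34.5 and 39.4 to 5.83, 6.69 and 5.10 (-2.39, SE 0.31, adjusted p = 7.09e-07). These were the 4 largest falls.

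HIST1H2BK fell from 5647, 6278 and 7603 in control to 1299, 1637 and 1757 normalised reads in the RelB-labelled libraries (log2 fold change -2.06, SE 0.15, adjusted p = 8.27e-11). HIST1H2AC, the most read H2A member, fell from 775, 802 and 896 to 207, 256 and 267 (-1.76, SE 0.11, adjusted p = 4.82e-12). None of the RelB-labelled values of these genes reached the lowest control. All 5 H2A members fell. HIST1H2AG went from 92.6, 144 and 120 to 42.3, 43 and 50, and HIST1H2AI, at low counts, from 22.1, 14.8 and 10.3 to 7.29, 5.74 and 5.10. HIST3H2A fell least, with a log2 fold change of -0.43 (SE 0.12, adjusted p = 0.00311). Of the H2B members tested, 6 of 7 fell, and HIST1H2BN, at 52.5, 38.2 and 29.6 against 50.7, 53.2 and 62.0, did not pass the test. The fall of HIST1H2BL (11, 11.8 and 16.8 to 8.75, 7.65 and 5.10) was lost without control replicate 2 or 3 or without RelB-labelled replicate 2 or 3, with adjusted p from 0.051 to 0.150, and by DESeq2 (adjusted p = 0.080).

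Both H3 members fell in the RelB-labelled libraries. HIST1H3D went from 30.9, 45.3 and 55.6 to 11.7, 27.7 and 17.3, with a log2 fold change of -1.22 (SE 0.24, adjusted p = 1.47e-04), and HIST1H3J from 21, 29.6 and 22.6 to 4.37, 7.65 and 5.10 (-1.93, SE 0.31, adjusted p = 9.88e-06). Neither gene's groups overlapped. All of the 50-base stretches of HIST1H3D's annotated transcripts, and 40.9% of those of HIST1H3J, also occur in another gene's transcripts. That gene can be a histone copy elsewhere or a gene annotated over the same place, and these were not separated. On the same strand, HIST1H3D overlaps AL031777.3 and HIST1H3J overlaps HIST1H2AM. The assignment of their reads is therefore uncertain. It is uncertain also for HIST1H2BK (74.1%), HIST1H2AI (62.3%), HIST2H2AC (30.5%) and HIST2H2BF (25.7%), which overlaps AC243772.2 on the same strand. HIST1H2BN (3.52% shared) overlaps HIST1H2AL on the same strand, and HIST1H2BD (5.36%) overlaps LARP1P1. What these overlaps do to their reads was not tested.

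The H4 members differed among themselves. HIST1H4H fell from 116, 155 and 175 to 54, 84.1 and 101 (log2 fold change -0.91, SE 0.18, adjusted p = 1.38e-04) and HIST1H4C from 47.4, 55.2 and 57.5 to 19.0, 24.9 and 22.4 (-1.24, SE 0.24, adjusted p = 8.52e-05). HIST4H4, which lies alone on chromosome 12, was at 90.4, 95.6 and 81.4 in control and at 115, 129 and 90.8 in the RelB-labelled libraries, and did not pass limma's test (0.31). It was called higher by edgeR (0.35, adjusted p = 0.037) and without RelB-labelled replicate 3 (0.45, adjusted p = 0.011). Its groups overlapped, in contrast to the other H4 members. Of the H1 members, HIST1H1B fell as well (-1.74, SE 0.38, adjusted p = 3.04e-04), while HIST1H1E (-0.086) and HIST1H1D (-0.87) did not pass the test.

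**Figure D2:**
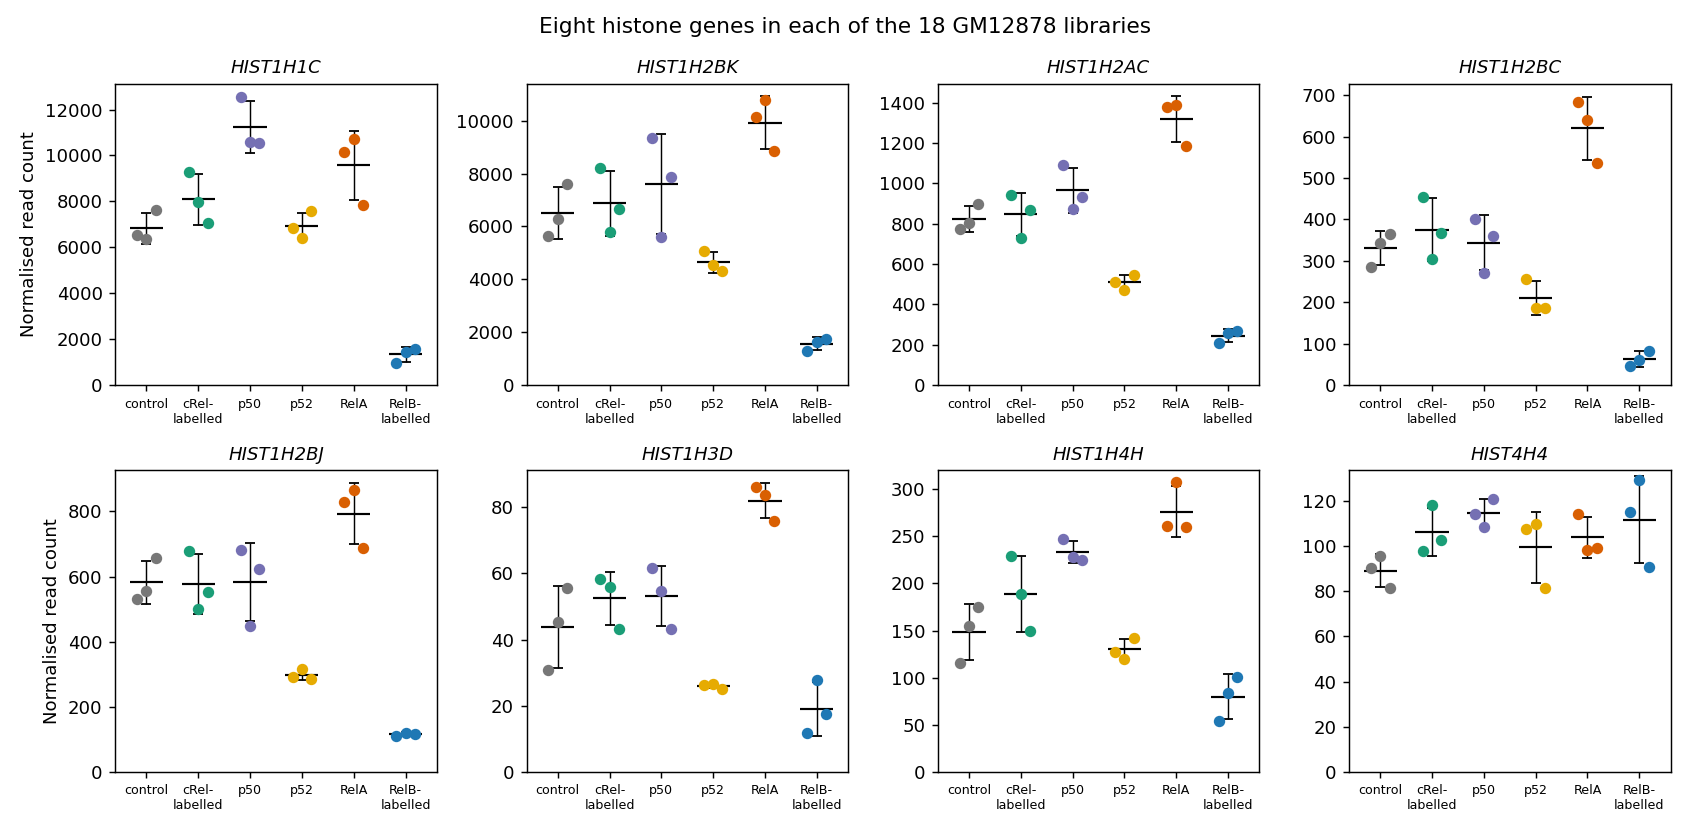
Normalised read count (vertical axis, from 0) of 8 histone genes in each library (points), with the mean (horizontal bar) and SD (whiskers, n = 3) of each group on the horizontal axis. In 7 of the panels the RelB-labelled mean is the lowest, while HIST4H4 stays between 81.4 and 129 in all 18 libraries.

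In the RelA libraries, 8 of the 21 members rose and none fell. Genes that rose made up 2.92% of all genes tested, and genes called in either direction 5.55%. The median log2 fold change was 0.45 for the members and -0.011 for all genes. For 13 members all 3 RelA libraries lay above all 3 controls, against 10.6% of all genes. The 8 came from every type: HIST1H1C of H1, HIST1H2AC of H2A, HIST1H2BC, HIST2H2BE, HIST1H2BK and HIST1H2BJ of H2B, HIST1H3D of H3 and HIST1H4H of H4.

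HIST1H2AC was at 1382, 1389 and 1186 normalised reads in the RelA libraries, against 775, 802 and 896 in control (log2 fold change 0.68, SE 0.11, adjusted p = 3.21e-04). HIST1H2BC, its head-to-head neighbour, was at 683, 641 and 537 against 285, 343 and 364 (0.91, SE 0.18, adjusted p = 0.00328). HIST1H4H was at 261, 307 and 260 against 116, 155 and 175 (0.91, SE 0.18, adjusted p = 0.00310). In each case the lowest RelA library exceeded the highest control. HIST2H2BE, an H2B gene of the HIST2 cluster, was at 648, 697 and 594 against 376, 406 and 432 (0.67, SE 0.13, adjusted p = 0.00167). HIST1H3D had the largest change, from 30.9, 45.3 and 55.6 to 86.2, 83.9 and 76.0 (0.92, SE 0.24, adjusted p = 0.0255). The assignment of its reads is uncertain, as given above.

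HIST1H1C was at 10136, 10707 and 7858 in the RelA libraries (0.48, SE 0.14, adjusted p = 0.0470), HIST1H2BK at 10136, 10801 and 8844 (0.61, SE 0.15, adjusted p = 0.0152) and HIST1H2BJ at 829, 864 and 686 (0.45, SE 0.13, adjusted p = 0.0468). The third RelA library was the lowest of its group for all of these. The count of 8 fell to 4 when control replicate 1, RelA replicate 1 or RelA replicate 2 was left out, with HIST1H1C, HIST1H2BK, HIST1H2BJ and HIST1H3D no longer called. HIST1H3D was also lost without RelA replicate 3, and HIST1H1C and HIST1H2BJ without control replicate 2 or without a filter on low values. HIST1H1C had an adjusted p of 0.063 by DESeq2, and 0.054 with the replicate number as a block.

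In the p52 libraries, 10 of the 21 members fell and none rose. Genes that fell made up 26.4% of all genes tested, and genes called in either direction 50.8%. The median log2 fold change was -0.55 for the members and 0.0022 for all genes. For 13 members all 3 p52 libraries lay below all 3 controls, against 26.7% of all genes. All of the called members were core histones: 3 of H2A, 5 of H2B and 2 of H3.

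HIST1H2BJ was at 292, 316 and 284 in the p52 libraries, against 532, 556 and 657 in control (log2 fold change -0.96, SE 0.13, adjusted p = 2.83e-06). HIST1H2AC was at 513, 470 and 544 against 775, 802 and 896 (-0.69, SE 0.11, adjusted p = 1.37e-05). Both genes' groups were well separated. HIST1H3J had the largest fall, from 21, 29.6 and 22.6 to 4.77, 9.25 and 5.76 (-1.77, SE 0.31, adjusted p = 6.02e-05). HIST2H2AC (-1.09, SE 0.31, adjusted p = 0.00632) and HIST1H2BL (-0.93, SE 0.33, adjusted p = 0.0232) fell at low counts. HIST1H1C, in contrast, was at 6823, 6421 and 7562 against 6544, 6341 and 7608, a log2 fold change of 0.023 (SE 0.14, adjusted p = 0.903). Leaving out 1 library lost the calls of HIST1H2BK (without control replicate 3, adjusted p = 0.065; also after quantile normalisation, 0.070), HIST1H3D (without control replicate 2 or 3), HIST1H2BL (without control replicate 3 or p52 replicate 3) and HIST2H2AC (without p52 replicate 2).

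In the p50 libraries the members divided: HIST1H1C and HIST1H4H rose and HIST1H3J, HIST2H2AC and HIST1H4C fell. These 5 of 21 compare with 36.7% of all genes tested called in either direction, 17% rising and 19.6% falling. HIST1H1C was at 12550, 10601 and 10550 normalised reads against 6544, 6341 and 7608 in control (log2 fold change 0.72, SE 0.14, adjusted p = 4.38e-04). HIST1H4H was at 247, 229 and 225 against 116, 155 and 175 (0.67, SE 0.18, adjusted p = 0.00649). Neither gene's groups overlapped. HIST1H3J was at 5.43, 9.48 and 9.80 against 21, 29.6 and 22.6 (-1.48, SE 0.31, adjusted p = 7.96e-04). HIST1H4C fell to 36.2, 35.8 and 26.1 (-0.70, SE 0.24, adjusted p = 0.0242) and HIST2H2AC to 15.4, 17.9 and 20.4 (-0.93, SE 0.31, adjusted p = 0.0242).

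The p50 falls of HIST2H2AC and HIST1H4C were lost without control replicate 2 or 3, which left 3 called members, and also without p50 replicate 1 or 2 for HIST2H2AC and without p50 replicate 3 for HIST1H4C. None of the 7 tested H2B members was called in p50. HIST1H2BK spread widely there, at 9337, 5584 and 7864, which overlapped control, and it was called without p50 replicate 2 (log2 fold change 0.41, adjusted p = 0.035). The median over the members was 0.16 in p50, -0.014 after quantile normalisation and -0.075 without p50 replicate 1, so its sign was not stable.

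In the cRel-labelled libraries, 0 of 21 members were called by limma, edgeR or DESeq2, and 0 had an unadjusted p under 0.05 by limma, while 6.09% of all genes were called. HIST1H1C was at 9265, 7965 and 7060 (log2 fold change 0.24, SE 0.14, adjusted p = 0.338) and HIST1H2BK at 8194, 5785 and 6650. Both overlapped control. The members' log2 fold changes ran from -0.39 to 0.35.

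**Figure D3:**
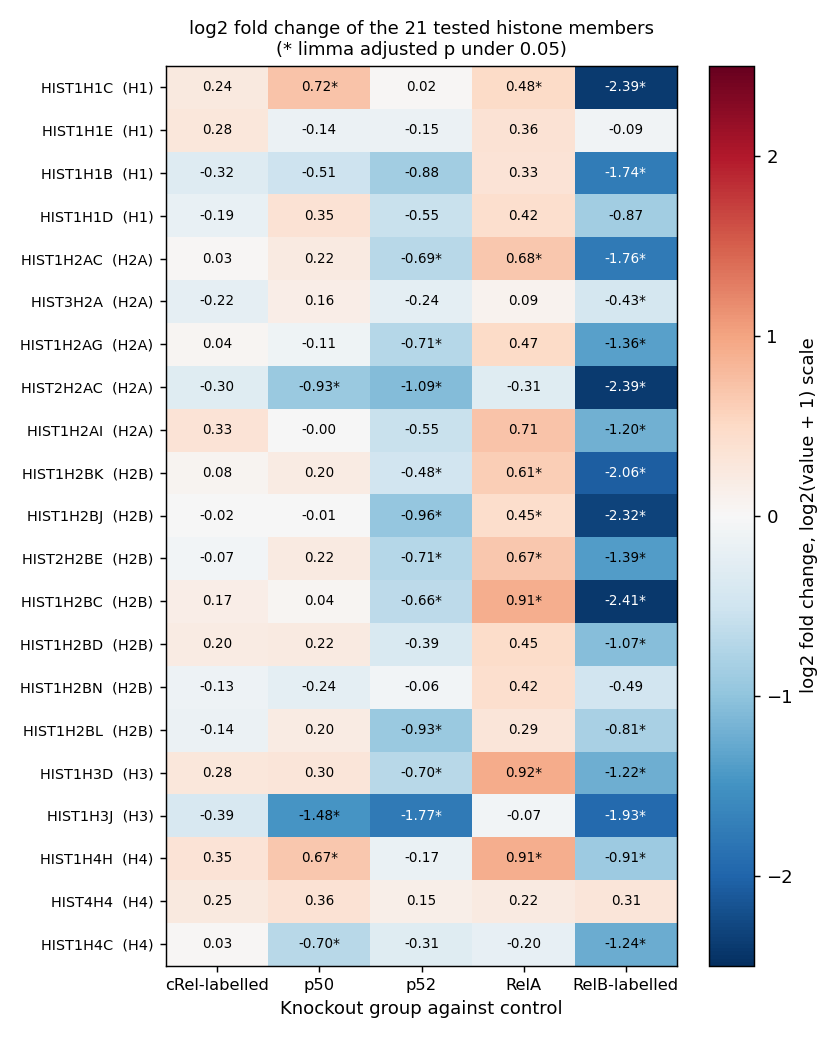
Log2 fold change against control (colour and number, log2(value + 1) scale) of the 21 tested members (rows, with histone type) in the 5 knockout groups (columns). Stars mark limma adjusted p under 0.05. The RelB-labelled column holds 17 falls, the RelA column 8 rises, and the cRel-labelled column no star.

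The knockouts were compared with one another without the control. By limma's F-test, 19 of the 21 members differed among the 5 knockout groups, against 78.8% of all genes. The smallest p-values belonged to HIST1H1C (adjusted p = 1.31e-13), HIST1H2AC (1.49e-13), HIST1H2BJ (2.76e-13) and HIST1H2BK (6.19e-12). HIST1H1E (adjusted p = 0.257) and HIST4H4 (0.643) did not pass, and neither was called in any of the 10 pairs of knockouts.

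The 10 pairs of knockouts are given with the share of all genes called in the same direction. Between RelA and RelB-labelled libraries, 19 members were higher in RelA and none lower (34.1% of genes higher). The median log2 difference was 1.87, and HIST1H2BC had the largest, 3.31. RelA stood above p52 for 17 members (26.5%), above p50 for 9 (20%) and above the cRel-labelled libraries for 6 (4.75%), and below them for none. Between p50 and p52, 12 members were higher in p50 and none lower (11.2%), with a median log2 difference of 0.60. HIST1H1C was among them, 0.69 higher in p50 (SE 0.14, adjusted p = 9.84e-04), while between p50 and RelA it did not pass the test (0.24, adjusted p = 0.185). The RelB-labelled libraries stood below p52 for 11 members (23.9%), below p50 for 16 (27.7%) and below the cRel-labelled libraries for 15 (33.4%). The cRel-labelled libraries stood above p52 for 12 members (23.4%), and against p50 2 were higher and 2 lower (31.1% called in either direction).

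The balance between the most read H1 and H2B genes also shifted. The ratio of HIST1H1C to HIST1H2BK reads within a library was 1.16, 1.01 and 1.00 in control and 1.34, 1.90 and 1.34 in p50. It was 1.35, 1.42 and 1.75 in p52, 1.00, 0.991 and 0.889 in RelA, and 0.745, 0.876 and 0.905 in the RelB-labelled libraries. In the cRel-labelled libraries it was 1.13, 1.38 and 1.06. All p50 and p52 libraries lay above the control range, and all RelB-labelled and RelA libraries below it. RelA replicate 1 lay only just below, at 1.000 against a control minimum of 1.001. The ratio was read after the values were seen and was not tested.

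Head-to-head neighbours share the stretch between their start sites and could be compared as pairs. HIST1H2AC and HIST1H2BC, 246 bases apart, fell together in the RelB-labelled libraries and in p52 and rose together in RelA. The ratio of their reads was 2.72, 2.34 and 2.46 in control and 4.44, 4.32 and 3.23 in the RelB-labelled libraries, so the ratio was above the control range there. The reads of HIST1H2BJ over those of HIST1H2AG, 248 bases away, went from 5.74, 3.86 and 5.50 in control to 2.59, 2.80 and 2.33 in the RelB-labelled libraries. For HIST2H2BE over HIST2H2AC, 236 bases apart, the ratio was 12.2, 11.8 and 11 in control and above that in most other libraries: 16.1, 34.6 and 22.4 in RelA, 23.3, 23.3 and 33.4 in the RelB-labelled libraries, 38, 20.6 and 24 in p50, 13.4, 29.4 and 9.74 in p52, and 14.3, 14.5 and 12.6 in the cRel-labelled libraries. For HIST1H2AI over HIST1H2BL, 244 bases apart and at low counts, it was 2.00, 1.25 and 0.615 in control and 0.833, 0.75 and 1.00 in the RelB-labelled libraries, which overlapped. These ratios too were not tested.

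Members with and without an annotated poly(A) signal at a transcript end were set side by side. Several members without it have short gene models, HIST1H1C of 642 bases and HIST1H2BK of 381 among them. Such models may end before a signal could be read. In the RelB-labelled libraries 8 of 9 members with the signal fell (median log2 fold change -1.36) and 9 of 12 without it (-1.23). In RelA 5 of 9 with it rose (0.47) and 3 of 12 without it (0.35). In p52 5 of 9 with it fell (-0.66) and 5 of 12 without it (-0.55). In each of these comparisons both medians had the same sign. Because the split also sorts members by the length of their gene models, it cannot tell polyadenylated from tail-less mRNA. Of 25 listed RNAs that carry no poly(A) tail, RN7SK and RN7SL1 among them, 4 were above the test's limit. By limma 0 of the 4 were called in each knockout against control, and unadjusted p was under 0.05 for 1 in the RelB-labelled comparison and 0 in the others. Their median log2 fold change was 0.44 in the RelB-labelled libraries (0.16 to 0.80), 0.47 in p52, 0.17 in cRel-labelled, -0.034 in RelA and -0.19 in p50. Between knockouts, 2 were higher in the RelB-labelled libraries than in RelA and 1 than in p50 (67.2% and 53.1% of all genes called in either direction). Only 15 of the 25 listed RNAs had values, 6 of them with a mean under 1. Summed over these 15, the level was 120 to 302 per control library and 176 to 258 per RelB-labelled library. The part of tail-less RNA in the histone changes was not tested.

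Genes that act with the histone genes were read as lists, beside the share of all genes called in either direction. SLBP was at 6366 ± 145 normalised reads in control (SD, n = 3) and fell to 5071 ± 231 in p50, 4531 ± 418 in p52 and 3687 ± 49.5 in the RelB-labelled libraries, with log2 fold changes of -0.33, -0.49 and -0.79 (adjusted p = 3.11e-10 for the last). It was at 6157 ± 243 in RelA, where it did not pass the test (-0.049). NPAT was called in p50 alone (-0.25, adjusted p = 0.0413), and its log2 fold change was -0.012 in the RelB-labelled libraries. Of 22 genes listed for histone gene transcription and 3′ processing, 13 fell and 3 rose in the RelB-labelled libraries, 72.7% against 67.8% of all genes. In p52 13 fell (59.1% against 50.8%), in p50 9 fell (40.9% against 36.7%), and in RelA 1 rose, NCBP1 of the cap-binding complex (0.24; 4.55% against 5.55%). These shares, which count both directions, lay near those of all genes, but the direction did not. In p52 and p50 every call was a fall, while genes that fell made up 26.4% and 19.6% of all genes. In the RelB-labelled libraries 13 of the 22 fell, against 34.7% of all genes. Of 18 genes for histone mRNA decay, 12 fell and 3 rose in the RelB-labelled libraries (83.3%). The exonuclease XRN1 was among those that rose (0.94) and ERI1, which trims the stem-loop end, among those that fell (-0.54).

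Genes of DNA replication are active in the same part of the cell cycle as most histone genes. Of 29 tested S-phase genes, 28 fell in the RelB-labelled libraries, 28 in p52, 27 in p50, 1 in the cRel-labelled libraries and 0 in RelA, where 4 had an unadjusted p under 0.05. The called shares, in that order, were 96.6%, 96.6%, 93.1%, 3.45% and 0%, against 67.8%, 50.8%, 36.7%, 6.09% and 5.55% of all genes. Their median log2 fold changes were -0.95, -0.62, -0.39, -0.11 and -0.031 in that order. RRM2, the ribonucleotide reductase subunit that supplies deoxynucleotides, was at 8690 ± 426 in control, 5090 ± 383 in p50, 4499 ± 110 in p52, 8862 ± 108 in RelA and 3559 ± 172 in the RelB-labelled libraries. CDC6, which loads the replicative helicase, fell by 1.45 on the log2 scale in the RelB-labelled libraries and by 0.58 in p50. Of 18 genes of G2 and mitosis, 18 fell in the RelB-labelled libraries, 18 in p52 and 16 in p50, and in RelA 1 rose, BUB1 of the spindle checkpoint (0.38). The called histone members fell beside falling S-phase genes in the RelB-labelled and p52 libraries, rose in RelA where no S-phase gene was called, and divided in p50 where most S-phase genes fell. The part of a changed share of cycling cells in the histone levels was not tested.

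Of 12 tested histone variant genes, 7 fell and 1 rose in the RelB-labelled libraries, 66.7% called against 67.8% of all genes. In p52 and in p50 8 fell and 1 rose (75% in each, against 50.8% and 36.7%), and in RelA 1 fell and 1 rose (16.7% against 5.55%). H2AFX, the variant phosphorylated at DNA breaks, went from 7698 ± 884 in control to 1753 ± 83.0 in the RelB-labelled libraries (log2 fold change -2.13, adjusted p = 3.33e-14) and was at 7344 ± 858 in RelA. H2AFZ, which marks promoters, went from 26239 ± 2218 to 8577 ± 229 in the RelB-labelled libraries. H1F0, the linker histone of non-dividing cells, moved the other way, from 11.3 ± 4.05 to 42.6 ± 6.61 (1.87), and also rose in RelA to 28.7 ± 6.30 (1.31, adjusted p = 0.0150). Of 22 chaperone and assembly genes, 18 fell and 2 rose in the RelB-labelled libraries (90.9% called), 17 fell and 1 rose in p52 (81.8%), 16 fell and 1 rose in p50 (77.3%) and 0 were called by limma in RelA, where 1 had an unadjusted p under 0.05. NASP, a carrier of H1 and H3-H4, fell by 1.04 on the log2 scale in the RelB-labelled libraries, and CHAF1A, of the assembly factor CAF-1, by 1.12. Of 13 quiescence and CDK inhibitor genes, 6 rose and 5 fell in the RelB-labelled libraries (84.6% against 67.8% of all genes), with a median log2 fold change of -0.070. CCNG2 (1.74), CDKN1B (0.82) and CDKN1A (0.59) were among those that rose. RBL1 was lower there, at 566 ± 55.1 against 1134 ± 155 in control, and so was RB1, at 90.3 ± 13.7 against 134 ± 28.9. Of 14 other short genes without introns, 7 fell and 3 rose in the RelB-labelled libraries (71.4% called), with the heat-shock gene HSPA1B highest among the genes named by the rule (3.73). In p50 4 fell and 1 rose (35.7%), in p52 3 fell and 1 rose (28.6%), in RelA JUN rose and JUNB fell (14.3%), and in the cRel-labelled libraries SOX4 fell (7.14%).

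**Figure D4:**
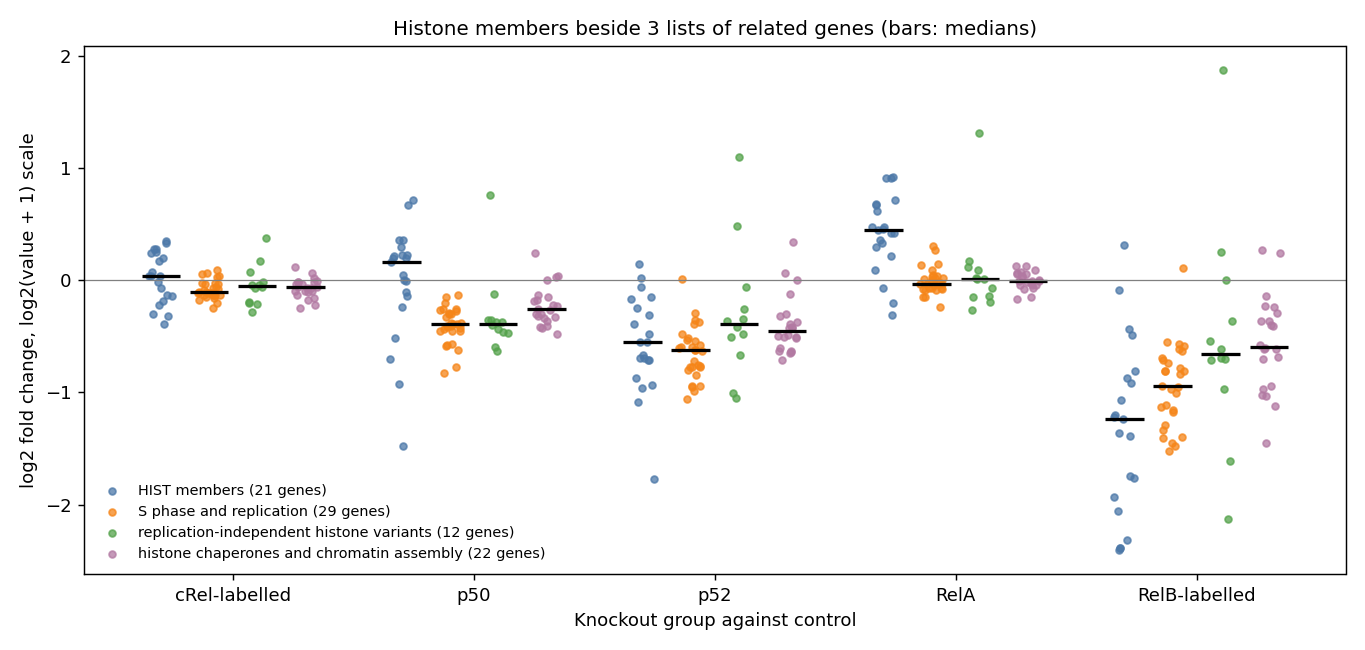
Log2 fold change against control (vertical axis, log2(value + 1) scale) of the 21 histone members, 29 S-phase genes, 12 histone variants and 22 histone chaperones (points, with medians as bars) in the 5 knockout groups. In RelA the members' median is 0.45 beside -0.031 for S-phase genes, and in p50 0.16 beside -0.39.

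Among the genes outside the clusters whose profile over the 18 libraries was most like the members' sum were POMGNT2 (Pearson r = 0.971 on the log2 scale), ZBED6CL (0.962), TCEB3 (0.956) and SAPCD2 (0.952), of 9836 genes compared. The likeness is a description, and the 18 points share 6 groups. Without the RelB-labelled libraries, r was 0.826 for POMGNT2 and 0.604 for TCEB3 over 15 libraries.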

How the data were processed

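Values were the authors' deposited normalised read counts (a signal: gene reads divided by 1 size factor per library). The submitters' processing notes name STAR 2.5.2b, featureCounts 1.5.1, DESeq2 1.14.1 and GRCh37. The sources used here give no annotation release, filter or strand setting. Whole reads were recovered: 100% of 308790 values were whole multiples of a library's step within 0.0001. Libraries held 15179664 to 37473129 reads. Values were tested on log2(value + 1) with limma 3.58.1 (R 4.3.3), 1 trended fit over 18 libraries, genes of mean at least 10, two-sided, adjusted p under 0.05. Alternatives were edgeR 4.0.16 and DESeq2 1.42.0 on the recovered reads, quantile normalisation, pseudocounts of 0.5 and 5, other filters, only the groups compared, a replicate block, a length correction and leaving out each library. The test was checked on simulated data.

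The members and lists were chosen with earlier results of these data known. Named genes were the 2 most read members of each type, up to 4 called members per knockout and direction, the 4 smallest F-test p-values, up to 3 called genes per list, SLBP, NPAT, the 5 targeted genes and the 5 genes most like the members' sum, of which 1 is not reported here. Other members were named after their values were seen. Gene sequences came from GENCODE 29 and RefSeq.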

Additional observations from a re-analysis of the deposited data

How the results depend on the processing

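No called change turned its direction under these alternatives; the medians of cRel-labelled and p50, near 0, changed sign after quantile normalisation and without single libraries. With the limit at a mean of 100, which left 11 members, the counts called were 3 in p50, 6 in p52, 5 in RelA, 10 in RelB-labelled and 10 in the F-test. Among the same 11 the reported test called 2 in p50 and 7 in RelA: HIST4H4 was gained in p50 (adjusted p = 0.048) and HIST1H1C (0.056) and HIST1H2BJ (0.053) were lost in RelA. At that limit the RelB-labelled median was -1.39. Quantile normalisation moved the p52 median to -0.79 and the RelB-labelled median to -1.58, while the median of all genes was -0.027 and -0.026; the cause was not tested. By edgeR the counts were 0 in cRel-labelled, 6 in p50, 11 in p52, 9 in RelA and 18 in RelB-labelled, and by DESeq2 0, 5, 10, 7 and 16.

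With the replicate number as a block the counts were 0, 6, 12, 7 and 18, and 19 in the F-test. The libraries were taken to share only a number, since in 0 of 5 knockouts did all 3 same-numbered correlations exceed 0.1 (range -0.099 to 0.397). As a hint from the data, 16 of 18 libraries correlated best with their own number.

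Leaving out each library gave counts of 0 to 0 in cRel-labelled, 3 to 6 in p50, 7 to 11 in p52, 4 to 8 in RelA, 16 to 18 in RelB-labelled and 18 to 20 in the F-test. In the same order of groups, the medians ran from -0.048 to 0.083, -0.075 (p50, without p50 replicate 1) to 0.21, -0.69 to -0.47, 0.38 to 0.55 and -1.44 to -1.21.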
